A study of Mus musculus with 6 samples.

Results

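The 36 genes described here encode the enzymes that turn glucose into lactate, the carriers for glucose and lactate, the kinases that restrain pyruvate dehydrogenase, the enzymes that set fructose 2,6-bisphosphate, and a small group of oxygen sensors and hypoxia targets. They were taken by symbol as genes of these pathways, and all 36 were present among the 24063 symbols of the count table. RNA was sequenced from LSK cells of mouse bone marrow, a sorted population negative for lineage markers and positive for Kit and Sca1 in which haematopoietic stem cells and their first progeny reside. There were 3 libraries labelled knockout, of genotype Arid2fl/fl:MxCre+, and 3 control libraries, of genotype MxCre+ with titles giving Arid2 as wild type, all on a C57/BL6 background. Arid2 is a subunit of the PBAF chromatin remodelling complex, and the series compares expression with and without its conditional deletion. All mice in both groups carried MxCre and received pIpC at 6 to 8 weeks of age, and cells were taken 6 weeks after the injection. The Mx1 promoter that drives Cre answers to the interferon that pIpC induces, in blood cells and in other tissues, so Cre was not restricted to the sorted cells. The labels do not say from which or how many animals each library came, and p-values therefore measure the spread between these libraries.

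Glycolysis splits glucose into pyruvate, which is either reduced to lactate in the cytosol or carried into mitochondria and oxidised through pyruvate dehydrogenase. Hypoxia-inducible factors turn on many of the genes of this route: the HIF1A protein is hydroxylated by the EGLN enzymes when oxygen is present, bound by VHL and destroyed, and it accumulates when oxygen is short. Long-term haematopoietic stem cells are known for a reliance on glycolysis, for HIF1A activity in the marrow niche, and for pyruvate dehydrogenase kinases that keep pyruvate out of mitochondria.

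Total counts per library ran from 12408966 to 28185678 reads, of which the 36 genes took 83049 to 194141. Arid2 itself, the gene to be deleted, measured 162, 150.2 and 155 CPM in the libraries labelled knockout and 165, 154 and 148 CPM in controls, so the groups overlapped. Its edgeR log2 fold change was 0.00 (adjusted p = 0.991), and the interval of the ratio, 0.904 to 1.11 at 95% confidence, holds no large loss of its reads. CPM is a read count relative to the size of its library, after scaling between libraries. A gene-level count cannot tell if the floxed part was lost, so each direction below follows the labels. The 3 libraries labelled knockout and control replicate 2 were female by Xist (1916 to 2016 CPM of the library total), whereas control replicates 1 and 3 were male (6.15 and 11.9 CPM). Group and sex are thus partly confounded, and a fit with a sex term compares the knockout label with the sole female control. Of the surface markers used to sort the cells, Sca1 (gene Ly6a) was 13.5 ± 1.57 CPM against 20.02 ± 2.1 CPM (adjusted p = 0.0378) and Kit was 439 ± 11 CPM against 557 ± 86.1 CPM (adjusted p = 0.0814). Summed markers of neutrophils came to 7582 to 9708 CPM against 3119 to 6021 CPM, with 6 of 13 called higher. In 9 of the 13 every library labelled knockout was above every control, as in 15.1% of all genes tested. For Mmp8, Mmp9, Retnlg and Cxcr2 of that list the groups overlapped, so not all neutrophil markers moved with the sum. Markers of monocytes and macrophages came to 2701 to 3249 CPM against 1546 to 1895 CPM, with 5 of 13 called higher. No marker of these 2 lists was at 0 in every library. The sums were 139.6 to 275 CPM against 195 to 547 CPM for mast cells and basophils, 116 to 150.03 against 167 to 201 for stroma and endothelium, 24.8 to 28.5 against 34.7 to 39 for B cells and 252 to 323 against 199 to 280.0 for T and NK cells. Single genes held most of 2 of these sums. Pecam1 averaged 105 CPM in the knockout label and 114 CPM in controls, of stroma and endothelium sums averaging 137 and 184 CPM. Cdh5 of that list was at most 0.401 CPM. Nkg7 averaged 238 and 197 CPM of T and NK sums averaging 277 and 243 CPM. Of the 10 T and NK markers, 6 had fold changes above 0 and 4 below. In bulk RNA, a change in the make-up of the sorted cells and a change of RNA within a cell cannot be told apart.

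Most of the glycolytic and hypoxia genes were not distinguishable between the genotype labels. Of the 36, 35 had enough reads to be tested, and 3 were lower in the libraries labelled knockout at an adjusted p under 0.05: Pfkl, the liver-type phosphofructokinase, Pdk1, a pyruvate dehydrogenase kinase, and Car12, a membrane carbonic anhydrase. With edgeR 0 were higher, whereas DESeq2 placed 1 gene, Pfkfb4, above the threshold. Over all 13679 genes tested, 4.58% were called lower, 3.85% higher and 8.42% in either direction, beside 3 of 35 here (8.57%). At an unadjusted p under 0.05 the count was 9 of 35, of which 3 were higher and 6 lower, against 24.9% of all genes. The median log2 fold change of the 35 was 0.02, against −0.00 over all genes tested, with 19 values above and 16 below 0.

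The groups did not overlap for 10 of the 35 genes (28.6%), a share close to the 31.2% of all genes tested. In 4 of them every library labelled knockout was above every control (Eno1, Pdk2, Pfkfb4 and Vhl), and in 6 every one was below (Pfkl, Ldhb, Pdk1, Pfkfb2, Egln3 and Car12). Over all genes those shares were 15.1% and 16.1%. For 26 of the 35 genes (74.3%), the 95% confidence interval of the ratio between groups lay inside 1.5-fold in either direction, as it did for 63.1% of all genes, so larger changes of those genes fall outside their intervals.

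**Figure D1:**
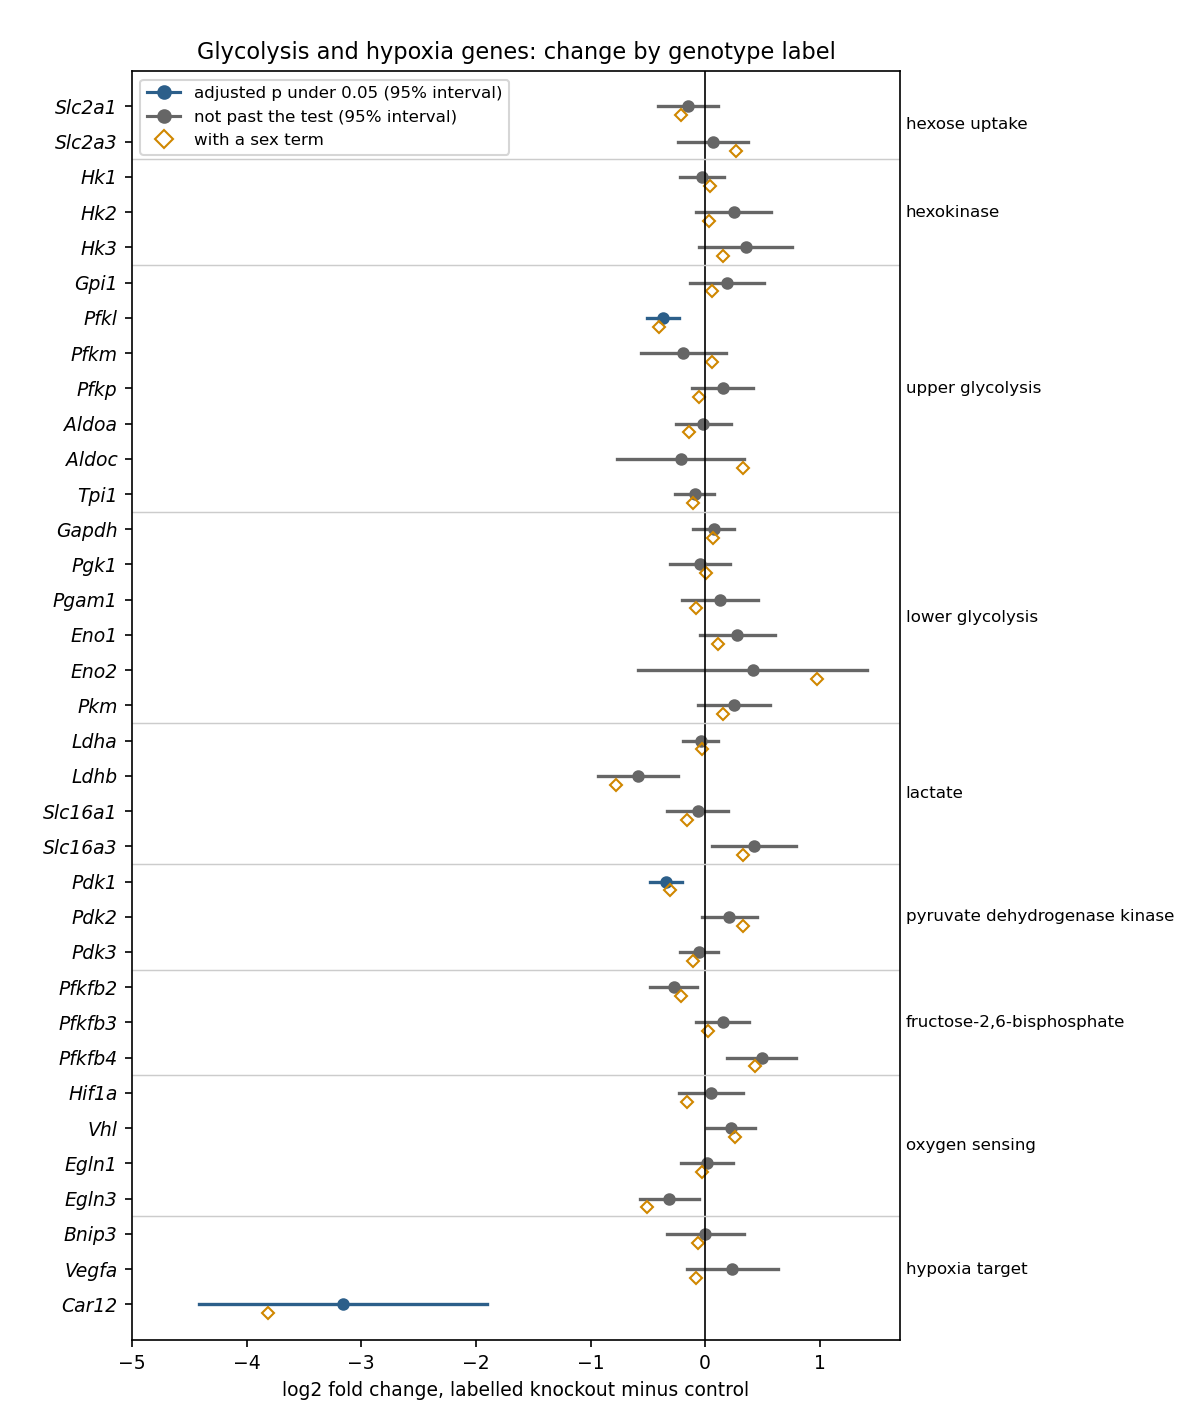
Log2 fold change of the 35 tested genes (x axis, labelled knockout minus control) by role (y axis); filled points with bars are edgeR estimates with 95% confidence intervals from 3 libraries per group, and open diamonds are the estimates with a sex term. Pfkl, Pdk1 and Car12 are drawn in blue as past the adjusted threshold, and Car12 lies at −3.16 while the other 34 values lie between −0.58 and 0.49.

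Levels between genes were compared as CPM per kilobase of exon, averaged over the 6 libraries, to allow for transcript length. Pkm, the pyruvate kinase gene, stood highest at 461 CPM per kb, followed by the glucose-6-phosphate isomerase gene Gpi1 at 363, Ldha at 305, the aldolase gene Aldoa at 297 and Gapdh at 227. Ldha and Aldoa were neighbours whose libraries overlapped (Ldha 301 ± 18 against 309.5 ± 3.66 and Aldoa 295 ± 22.2 against 299 ± 39 CPM per kb, SD, n = 3 each). The lowest were Car12 at 0.77, the neuronal enolase gene Eno2 at 0.444 and Pdk4 at 0.0763 CPM per kb. The 13 genes from Pgam1, at 23.1 CPM per kb, down to Hif1a, at 13, lay close together, and libraries of neighbours in that stretch overlapped. Exon lengths came from the annotation and not from the transcripts in use in these cells, so this order is approximate.

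**Figure D2:**
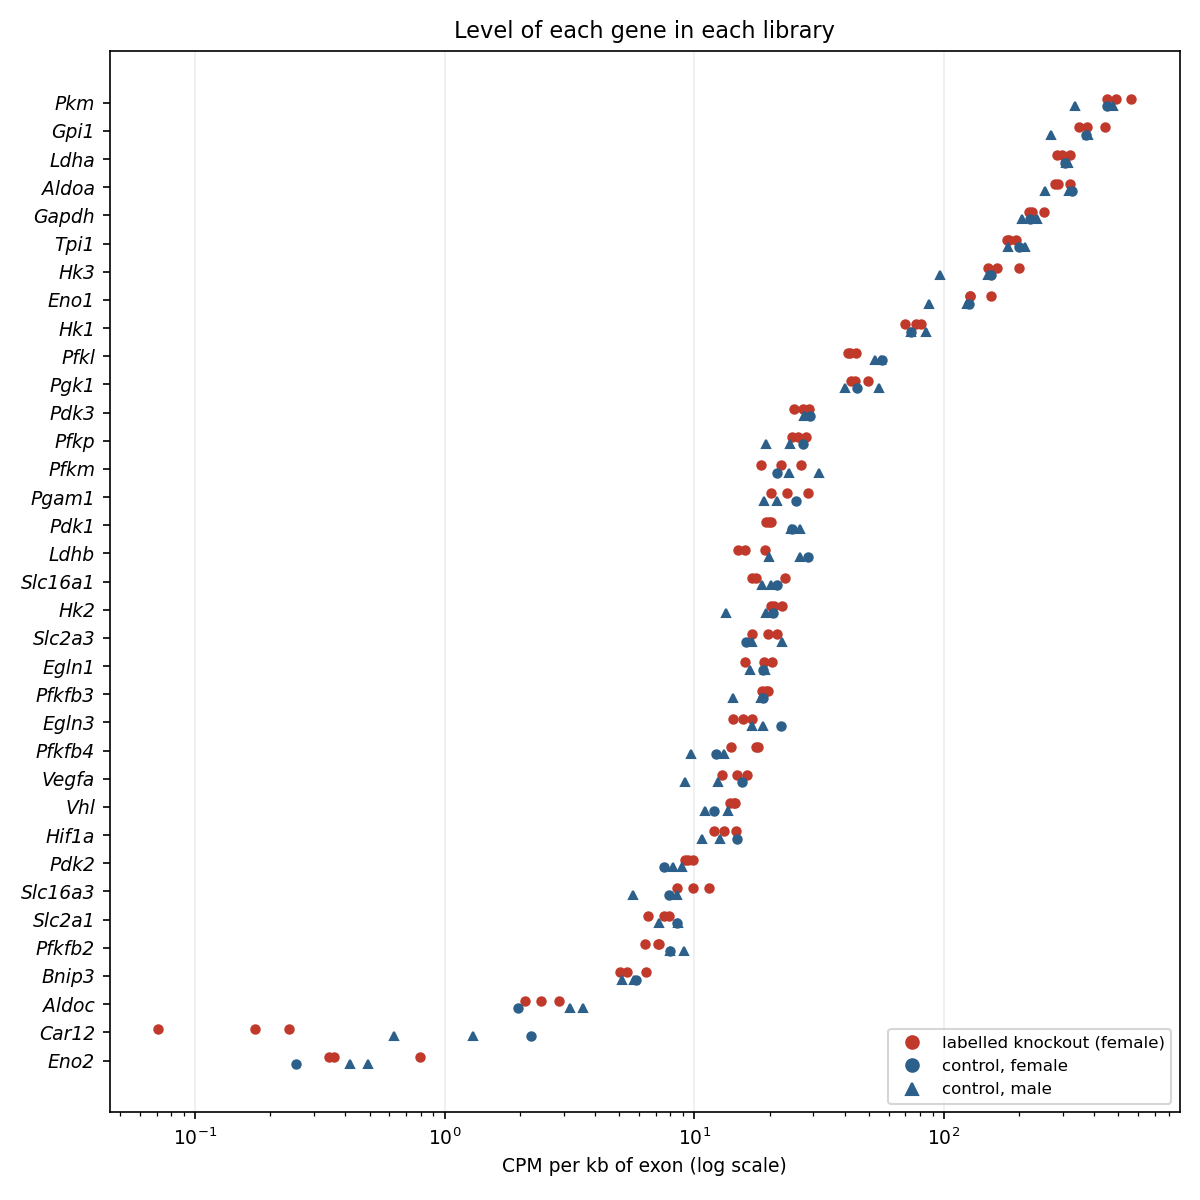
Level of each gene that passed the count filter (x axis, CPM per kb of exon, log scale) in each of the 6 libraries, ordered by the mean; circles are female and triangles male libraries, red for the knockout label and blue for control. The genes run from Pkm at 461 to Eno2 at 0.444 CPM per kb, and the Car12 points of the groups stand apart.

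Glucose enters blood cells mainly through facilitative transporters of the GLUT family. Slc2a1, which encodes GLUT1, measured 25.8, 21.2 and 24.6 CPM in knockout-labelled replicates 1 to 3 and 28, 27.7 and 23.6 CPM in controls 1 to 3 (log2 fold change −0.15, SE 0.11, adjusted p = 0.465). Slc2a3, which encodes the high-affinity GLUT3, measured 77.8, 67.1 and 84.6 CPM and 67.2, 63.5 and 88.5 CPM (0.07, SE 0.13, adjusted p = 0.804). The groups overlapped for both transporters. Per kilobase of exon, Slc2a3 made up 72.5% ± 1.31 of the pair in the knockout label and 69.1% ± 5.61 in controls (SD, n = 3 each).

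Hexokinases trap glucose as glucose 6-phosphate. Hk3, an isoform typical of myeloid cells, was the most abundant per kilobase, with 63.5% ± 4.43 of the family against 57.8% ± 7.06, then Hk1, the widely expressed isoform, with 28.5% ± 4.23 against 34.5% ± 7.8, and Hk2, the inducible isoform, with 7.92% ± 0.195 against 7.73% ± 0.758. Hk3 measured 669.6, 549 and 502 CPM in the knockout label and 503, 516 and 324 CPM in controls. Control replicate 3 was the lowest, replicate 1 of the knockout label was the highest, and the groups overlapped (log2 fold change 0.36, SE 0.18, adjusted p = 0.258). Neither Hk1 (−0.03, adjusted p = 0.879) nor Hk2 (0.25, adjusted p = 0.331) passed the test. Summed neutrophil markers were lowest in control replicate 3 and highest in knockout-labelled replicate 1 as well (3119 and 9708 CPM), and their part in the Hk3 values was not tested.

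Phosphofructokinase commits hexose to glycolysis, and its liver-type subunit gene was the one called glycolytic enzyme. Pfkl (ENSMUSG00000020277, chr10:77986947-78010083, minus strand, GRCm38) measured 154, 157 and 166 CPM in the libraries labelled knockout and 208, 209.7 and 197 CPM in controls. Every library of the first group was lower than every control, with little spread within either group. The log2 fold change was −0.37 (SE 0.06, adjusted p = 0.0114), and the ratio between groups had a 95% interval from 0.705 to 0.852. With the sex term the value was −0.40 with an adjusted p of 0.135, and without knockout replicate 2 the adjusted p was 0.0594.

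The other phosphofructokinase genes did not pass the test. The muscle-type Pfkm had values of 55.4, 66.6 and 80.2 CPM and 71.8, 64.5 and 94.4 CPM, with overlapping groups (log2 fold change −0.19, adjusted p = 0.525). The platelet-type Pfkp had 112, 120.2 and 106 CPM and 104, 117 and 82.9 CPM, also overlapping (0.15, adjusted p = 0.467). Per kilobase, Pfkl was 46.7% ± 1.26 of the family in the knockout label against 52.8% ± 1.48 in controls, and Pfkp 28.8% ± 2.66 against 22.6% ± 3.71, and Pfkm 24.5% ± 3.18 against 24.6% ± 5.12 (SD, n = 3 each). The order of Pfkm and Pfkp within the family depends on which annotated exons are counted as their length.

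The remaining enzymes between glucose and triose phosphates were not called. Gpi1, the isomerase that follows hexokinase, measured 1274, 1078 and 1003 CPM and 1085, 1072 and 776 CPM (log2 fold change 0.19, adjusted p = 0.448). Aldoa, the main aldolase, was 538 ± 40.5 CPM against 545 ± 71.2 CPM (−0.02, adjusted p = 0.938) and made up 99.2% ± 0.0702 of the aldolase signal per kilobase in the knockout label. The brain-type Aldoc (−0.21, adjusted p = 0.634) and the triose phosphate isomerase gene Tpi1 (−0.09, adjusted p = 0.485) had overlapping groups, and the 95% interval of the Tpi1 ratio was 0.835 to 1.05.

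In the steps from triose phosphate to pyruvate, which yield ATP, 5 of 6 fold changes were above 0 and none passed the test. Eno1, the ubiquitous enolase, measured 394, 324 and 325 CPM in the knockout label and 314, 322 and 222 CPM in controls. The groups did not overlap, although their nearest libraries almost touched, and control replicate 3 was far below the rest (log2 fold change 0.28, SE 0.14, adjusted p = 0.268). Pkm measured 1461, 1269 and 1172 CPM and 1240.04, 1165 and 874 CPM, with overlapping groups and again the lowest value in control replicate 3 (0.25, adjusted p = 0.305). Gapdh, often taken as a reference gene, was 348 ± 25.6 CPM against 330.01 ± 22.4 CPM (0.08, adjusted p = 0.6), with a 95% interval of the ratio from 0.931 to 1.19. The phosphoglycerate kinase gene Pgk1, which is X-linked, was 82.7 ± 7.02 CPM against 85.4 ± 13.7 CPM (−0.05, adjusted p = 0.846), and the mutase gene Pgam1 42.8 ± 7.45 CPM against 39.1 ± 5.93 CPM (0.13, adjusted p = 0.637). Eno2 had 12 to 42 reads per library and a wide interval of its ratio, 0.668 to 2.67. Several of these enzymes have processed copies elsewhere in the genome, and the handling of reads that fit more than 1 copy was among the steps not given in the sources used here.

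Summed over the 16 enzymes from glucose to pyruvate, the level was 6039, 5350.4 and 5149 CPM in the knockout label and 5443, 5350.1 and 4266 CPM in controls. The groups overlapped, and control replicate 3 was below the other 5 libraries. Of the 16, 9 had a positive log2 fold change and 7 a negative one.

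Lactate dehydrogenase interconverts pyruvate and lactate. Ldha, the isoform favoured for lactate production, measured 539, 565 and 607 CPM in the knockout label and 594, 581 and 584 CPM in controls, and the groups overlapped (log2 fold change −0.04, SE 0.07, adjusted p = 0.765). Its ratio had a 95% interval from 0.874 to 1.08. Ldhb, the isoform of oxidative tissues, measured 24.9, 20.8 and 19.5 CPM and 34.5, 37.2 and 25.9 CPM. All 3 libraries labelled knockout were below all 3 controls, although control replicate 3 was close to knockout-labelled replicate 1. The log2 fold change of −0.58 (SE 0.15) had an adjusted p of 0.051 and so missed the threshold. It passed under 8 of 16 other settings and reached −0.77 with an adjusted p of 0.167 when sex was a term. Ldha made up 94.7% ± 0.936 of the pair per kilobase in the knockout label and 92.5% ± 1.26 in controls.

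Monocarboxylate transporters move lactate across the plasma membrane. Slc16a1, which encodes MCT1, measured 75.3, 77.9 and 102 CPM and 82.4, 94.6 and 89.6 CPM, with overlapping groups (log2 fold change −0.07, adjusted p = 0.777). Slc16a3, which encodes the lactate exporter MCT4, a hypoxia target, measured 51.1, 38 and 43.8 CPM and 38, 35.3 and 25.3 CPM. Its groups overlapped narrowly at control replicate 1 and knockout-labelled replicate 2, and control replicate 3 was the lowest (0.42, SE 0.16, adjusted p = 0.143).

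Pyruvate dehydrogenase kinases phosphorylate and switch off the enzyme that feeds pyruvate into mitochondria, and Pdk1 is a HIF1A target. Pdk1 (ENSMUSG00000006494, chr2:71873224-71903858, plus strand) measured 100.2, 103 and 105 CPM in the libraries labelled knockout and 126, 128 and 138 CPM in controls. Every library of the first group was below every control, and the female control replicate 2 lay between the male controls. The log2 fold change was −0.34 (SE 0.06, adjusted p = 0.0156), with a 95% interval of the ratio from 0.715 to 0.868. The adjusted p was 0.0579 without knockout replicate 1 and 0.0695 without knockout replicate 2, and the value with the sex term was −0.31 (adjusted p = 0.223).

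The other kinases of this family did not pass. Pdk2 measured 22.2, 20.6 and 21.3 CPM and 18.4, 16.9 and 20.04 CPM, with every library labelled knockout above every control (log2 fold change 0.21, SE 0.10, adjusted p = 0.247). Pdk3, X-linked and the most abundant of the family per kilobase, measured 60.9, 53 and 57.5 CPM and 58, 61.5 and 58.5 CPM and overlapped (−0.06, adjusted p = 0.676). Pdk4, a kinase induced by fasting in other tissues, had 8, 0 and 0 reads in the knockout label and 1, 8 and 12 reads in controls, too few to be tested. Summed over the 4 kinases, the level was 184, 177 and 184 CPM against 203, 206 and 217 CPM, each library labelled knockout below each control. The sum averaged 181 CPM against 209 CPM and Pdk1 alone 103 CPM against 131 CPM, so the lower sum largely restates Pdk1. Pdk1 accounted for 35.2% ± 1.82 of the family per kilobase against 40.9% ± 0.931 in controls, Pdk2 for 16.9% ± 0.196 against 13.3% ± 0.916, and Pdk3 for 47.8% ± 1.64 against 45.6% ± 1.9 (SD, n = 3 each).

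**Figure D3:**
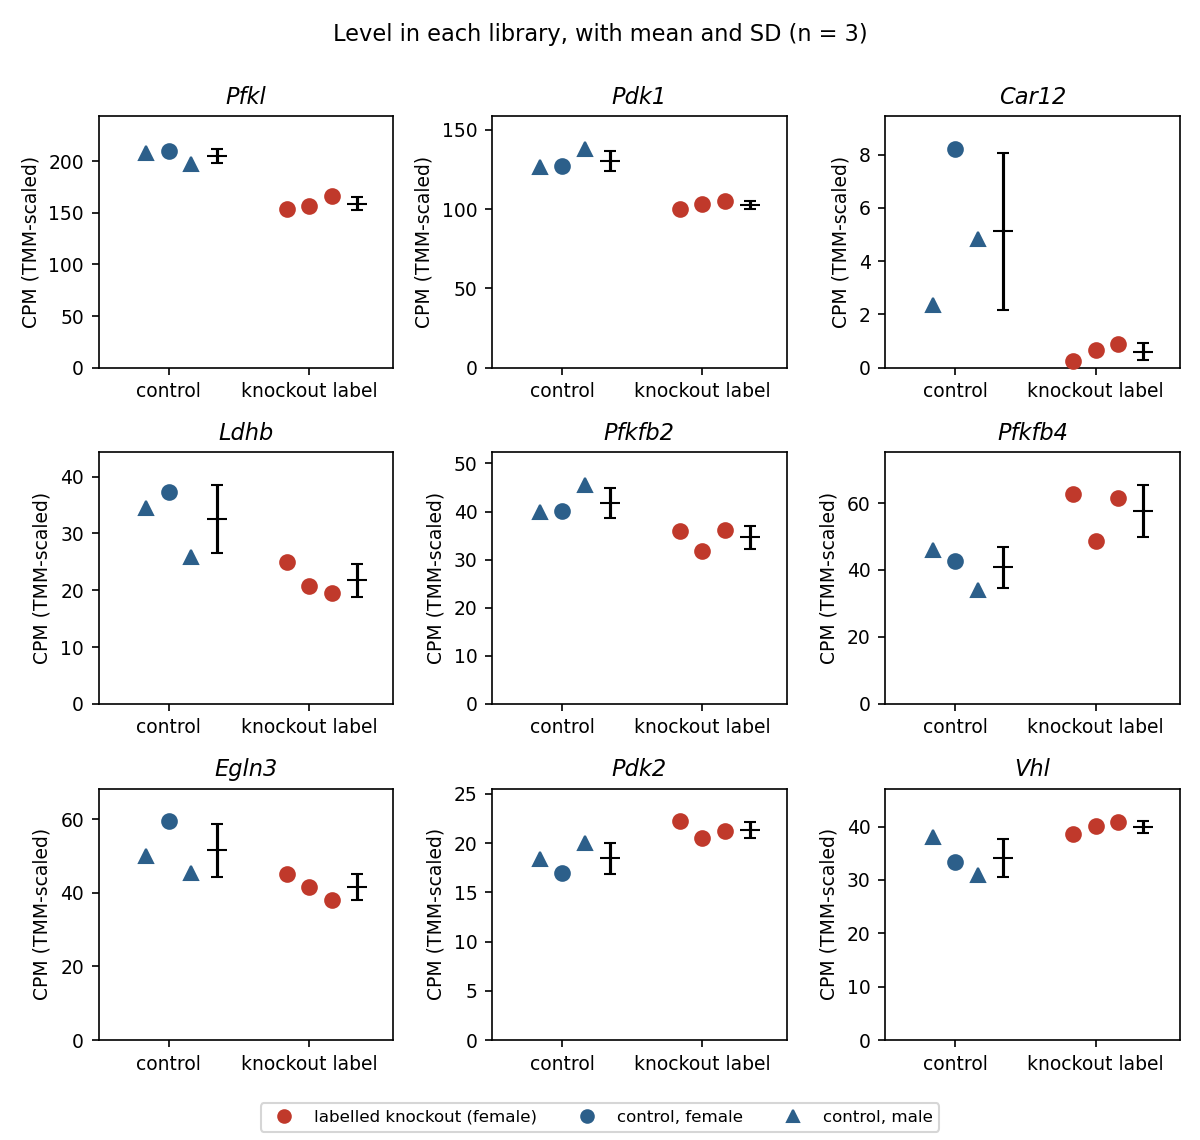
Level in each library (y axis, TMM-scaled CPM from 0) of 9 of the 10 genes whose groups do not overlap, Eno1 being left out; circles are female and triangles male libraries, and black bars give the mean and SD of 3 libraries. For Pfkl, Pdk1 and Car12 the female control (blue circle) is above all 3 libraries labelled knockout, and for Pdk2, Pfkfb4 and Vhl it is below them. Its side follows from the choice of genes without overlap and is no separate result on sex.

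The PFKFB enzymes make and break fructose 2,6-bisphosphate, the strongest activator of phosphofructokinase. Pfkfb4, a hypoxia-inducible isoform, measured 62.7, 48.8 and 61.4 CPM in the knockout label and 45.9, 42.6 and 34 CPM in controls. The groups did not overlap, and control replicate 3 was the lowest (log2 fold change 0.49, SE 0.13, adjusted p = 0.0567). Pfkfb2, the heart isoform, measured 35.9, 31.8 and 36.1 CPM and 39.96, 40.1 and 45.5 CPM, without overlap in the opposite direction (−0.27, SE 0.09, adjusted p = 0.103). Pfkfb3, the isoform with the highest kinase activity, measured 109, 107 and 103 CPM and 103, 104 and 79.2 CPM and overlapped (0.15, adjusted p = 0.402). None of these passed the adjusted threshold. Per kilobase, Pfkfb4 made up 38.6% ± 2.92 of the family against 31.3% ± 1.88, Pfkfb3 45.2% ± 3.11 against 46.2% ± 2.59, and Pfkfb2 16.2% ± 0.334 against 22.6% ± 4.09. Control replicate 3 held the highest Pfkfb2 share of all 6 libraries, 27.3%.

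**Figure D4:**
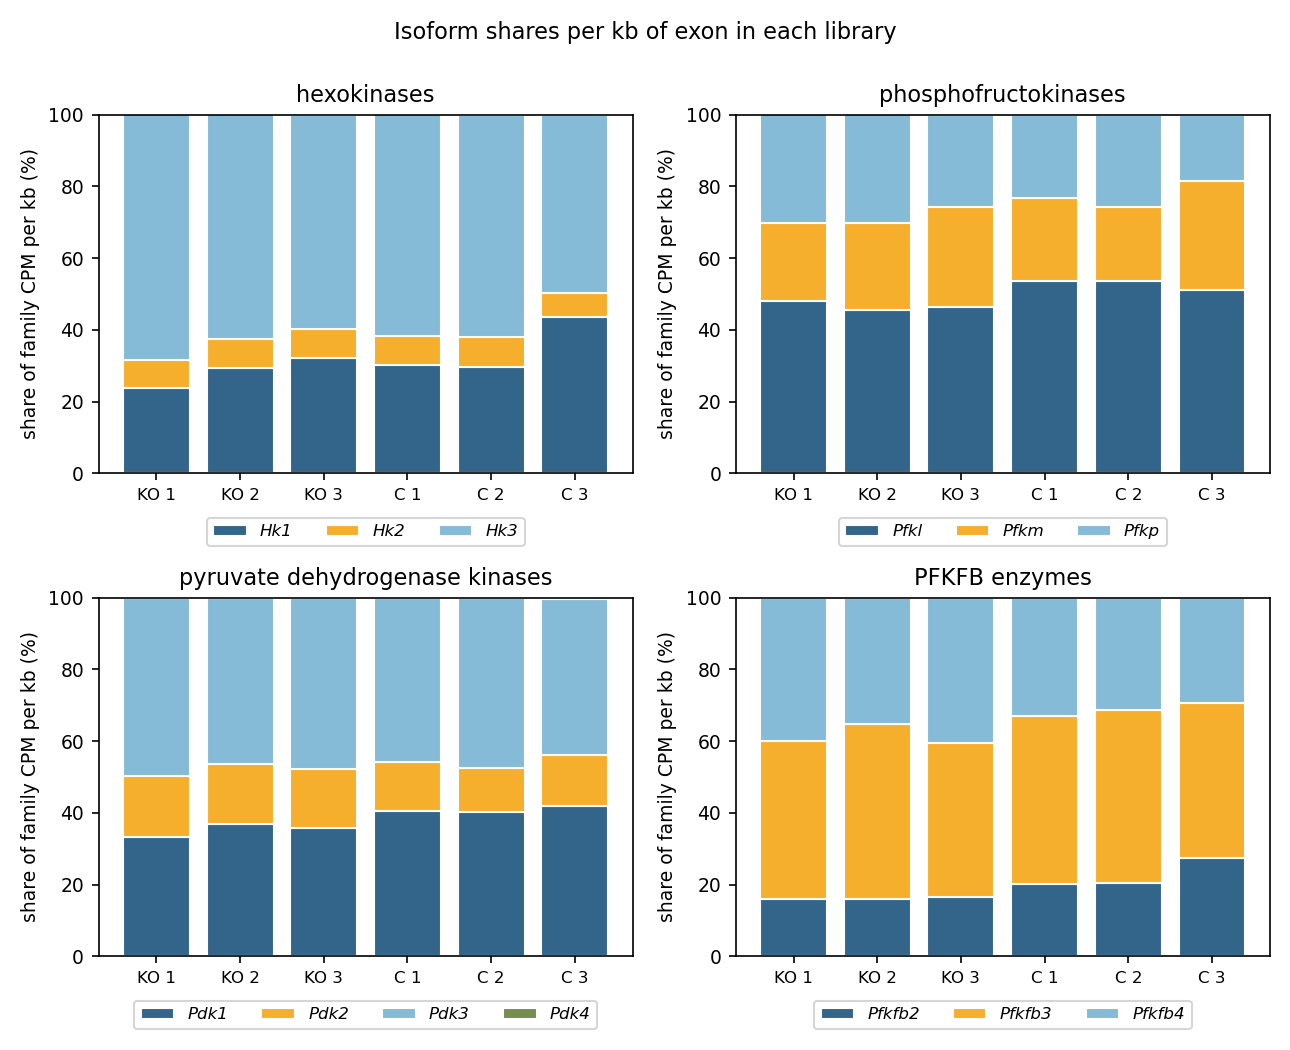
Share of each isoform in the CPM per kb of its family (y axis, percent) in the 3 libraries labelled knockout (KO) and the 3 control libraries (C), for 4 enzyme families. The Pfkl share is lower in the libraries labelled knockout (46.7% ± 1.26 against 52.8% ± 1.48), the Pdk1 share likewise (35.2% ± 1.82 against 40.9% ± 0.931), and control replicate 3 has the largest Hk1 share (43.5%). Pdk4 is under 1% and hardly visible.

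Among the oxygen sensors, none passed the test. Hif1a measured 80.01, 65.5 and 71.7 CPM in the knockout label and 69.3, 80.8 and 58.3 CPM in controls, with overlapping groups (log2 fold change 0.05, SE 0.12, adjusted p = 0.826). HIF1A activity is set largely by the stability of the protein, which these counts do not measure. Vhl, whose product targets HIF1A for degradation, measured 38.7, 40.2 and 40.8 CPM and 38, 33.4 and 30.9 CPM without overlap (0.22, adjusted p = 0.177). Egln1, the main HIF prolyl hydroxylase, was 66.4 ± 8.15 CPM against 65.6 ± 4.86 CPM (0.02, adjusted p = 0.926). Egln3, a hydroxylase that HIF itself induces, measured 45.1, 41.5 and 38 CPM and 49.98, 59.3 and 45.3 CPM. Its highest library labelled knockout lay just under the lowest control (−0.31, SE 0.11, adjusted p = 0.125).

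The hypoxia targets included the gene with the largest fold change of the 36. Car12 (ENSMUSG00000032373, chr9:66713686-66766845, plus strand), which encodes a membrane-bound enzyme that hydrates carbon dioxide outside the cell, had 5, 16 and 11 reads in the libraries labelled knockout and 38, 231 and 70 reads in controls. That was 0.264, 0.645 and 0.883 CPM against 2.34, 8.21 and 4.82 CPM. All 3 libraries labelled knockout were below 1 CPM and all 3 controls above 2 CPM, and the controls differed among themselves, with the female replicate 2 the highest. The log2 fold change was −3.16 (SE 0.55, adjusted p = 0.0146), with a 95% interval of the ratio from 0.0469 to 0.268. Car12 was the sole member called with the sex term (−3.82, adjusted p = 0.0497), where 0.314% of all genes were called in either direction, 0.0512% higher and 0.263% lower. In the female libraries alone, 3 against 1, it was again the sole member called (−3.82, adjusted p = 0.0365), beside 0.27% of all genes. Without knockout replicate 2 the adjusted p in all other libraries was 0.0694.

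The other hypoxia targets did not pass the test. Bnip3, a mitophagy receptor that HIF1A induces, was 10.4 ± 1.32 CPM against 10.3 ± 0.714 CPM (log2 fold change 0.00, adjusted p = 0.995). Vegfa, the angiogenic growth factor, measured 52.4, 57 and 45.6 CPM and 43.9, 54.8 and 32.4 CPM and overlapped (0.24, adjusted p = 0.442). Car9, a carbonic anhydrase that is a standard marker of hypoxia, was 18.9 ± 1.7 CPM against 18.8 ± 1.5 CPM (0.01, adjusted p = 0.971), and of the 10 carbonic anhydrases tested besides Car12, Car9 among them, 0 passed edgeR's adjusted threshold (1 lower at an unadjusted p under 0.05, and 1 lower by DESeq2). Of all genes tested, 8.42% passed that threshold.

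Hypoxia-inducible factors bind a short core, ACGTG or GCGTG, and the sequence before the start site of the 3 genes that were lower is shown with that of Ldha, a classic target that did not pass the test. Capitals mark matches to either core on either strand. The stretches are RefSeq windows on GRCm38.p6, given 5′ to 3′ on the strand of the gene, and they end at the base before the start site. Car12 is chr9:66713436-66713685, plus strand; Pfkl is chr10:78009808-78010004, minus strand, 197 bases long because the bases 5′ of it belong to an annotated exon of another transcript; Pdk1 is chr2:71872974-71873223, plus strand; and Ldha is chr7:46845554-46845803, plus strand.
Car12: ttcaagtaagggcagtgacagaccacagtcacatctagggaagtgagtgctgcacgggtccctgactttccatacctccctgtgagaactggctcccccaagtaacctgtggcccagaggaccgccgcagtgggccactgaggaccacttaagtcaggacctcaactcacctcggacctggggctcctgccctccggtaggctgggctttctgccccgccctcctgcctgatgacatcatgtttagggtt
Pfkl: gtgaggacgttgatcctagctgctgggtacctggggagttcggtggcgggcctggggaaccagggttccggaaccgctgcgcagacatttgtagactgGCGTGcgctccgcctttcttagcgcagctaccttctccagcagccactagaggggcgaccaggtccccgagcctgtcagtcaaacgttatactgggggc
Pdk1: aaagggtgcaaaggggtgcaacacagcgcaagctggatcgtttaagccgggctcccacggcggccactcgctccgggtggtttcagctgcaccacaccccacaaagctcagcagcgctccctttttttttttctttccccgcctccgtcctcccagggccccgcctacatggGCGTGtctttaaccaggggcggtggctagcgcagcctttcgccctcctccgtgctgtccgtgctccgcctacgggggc
Ldha: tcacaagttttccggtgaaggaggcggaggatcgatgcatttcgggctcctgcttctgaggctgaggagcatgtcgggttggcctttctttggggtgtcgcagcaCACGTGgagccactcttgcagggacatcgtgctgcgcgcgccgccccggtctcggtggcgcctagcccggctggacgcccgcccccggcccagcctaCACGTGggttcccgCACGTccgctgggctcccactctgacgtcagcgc

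The Car12 stretch held no match, the Pfkl and Pdk1 stretches held 1 each, and the Ldha stretch held 5, counting a palindromic CACGTG once on each strand. A second Pdk1 match spans the start site and is cut off by the end of the stretch. Ldha and Pdk1 each have a second start site in the table, and of those not shown, the 250 bases before the Ldha site held 1 match and those before the Pdk1 site 0. Windows of 300 bases, from 250 before to 50 after a start site, were found for 35 of the 36 genes, all but Slc2a3, and numbered 52. A match lay in 40 of the 52 windows (76.9%), against 43.8% of all 32851 windows in the table, and at least 2 matches in 51.9% against 20.6%. Windows of 1 gene can overlap, as for Eno1, Aldoa and Pfkm, so the same letters can count more than once. A palindromic CACGTG counted as 2 matches in members and in all windows alike. By gene, 30 of the 35 had a match, and the same count over all genes was not taken. Member windows were also richer in G and C, with a median of 61.2% against 52.7%, and its part in these shares was not tested. The shares describe letters and not binding, the windows reach no distant site, and no match says only that these letters are absent from the window.

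Within families, the balance of isoforms was taken as the log2 ratio of CPM in each library, for 14 pairs. Groups did not overlap for 6 pairs, each with the smallest p that an exact permutation test of 3 against 3 allows (two-sided p = 0.1, adjusted over the 14 pairs 0.233), so none can pass a threshold of 0.05. Each of these pairs holds a gene whose own groups did not overlap (Pfkl, Pdk1, Pfkfb2, Pfkfb4 or Egln3), so they in part restate those results. The share over other gene pairs was not taken, and for single genes tested it was 31.2%. The clearest separation was Pdk1 to Pdk2, with log2 ratios of 2.17, 2.33 and 2.31 in the knockout label and 2.78, 2.91 and 2.78 in controls. The gap between the groups was wider than the range within either, and the difference of means was −0.56. Pfkl to Pfkp had ratios of 0.46, 0.38 and 0.65 against 0.997, 0.84 and 1.25, a difference of −0.54. The difference was −0.29 for Pdk1 to Pdk3, −0.44 for Pfkfb2 to Pfkfb3, −0.34 for Pfkfb3 to Pfkfb4 and 0.32 for Egln1 to Egln3.

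Balance differed by a similar amount but with overlap for Ldha to Ldhb (4.43, 4.77 and 4.96 against 4.10, 3.96 and 4.49, difference 0.53, exact permutation p = 0.2). The same held for Slc16a1 to Slc16a3 (0.56, 1.03 and 1.22 against 1.11, 1.42 and 1.82, difference −0.51, exact permutation p = 0.2). For Hk1 to Hk3 the difference of −0.40 lay within the spread, since control replicate 3 had 0.34 and the other controls −0.49 and −0.53. Pairs share genes, so the 14 are not independent of each other.

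**Figure D5:**
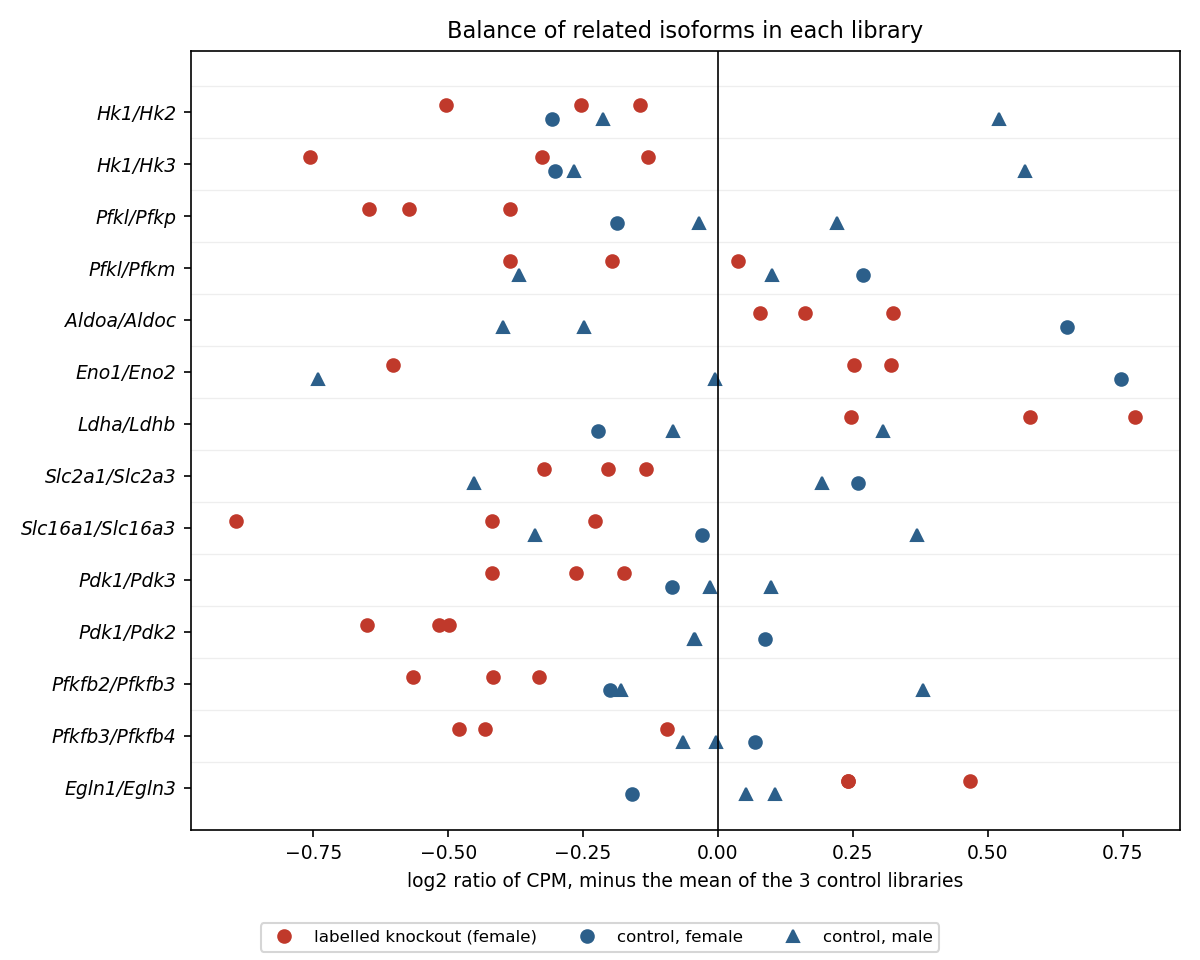
Balance of 14 isoform pairs (y axis) as the log2 ratio of CPM in each library minus the mean of the 3 control libraries (x axis); circles are female and triangles male libraries, red for the knockout label and blue for control. Red and blue points separate for 6 pairs, among them Pdk1/Pdk2, and control replicate 3 is the far right point for Hk1/Hk2 and Hk1/Hk3.

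Single libraries stood out across the 35 tested genes. Control replicate 3 held the lowest value of the 6 libraries for 16 genes (45.7%, against 22.7% of all genes tested), and knockout-labelled replicate 1 the highest for 13 (37.1%, against 18.8%). Control replicate 1 held the lowest value of none. Hk2, Hk3, Gpi1, Eno1, Pkm, Slc16a3 and Pfkfb4 were among those lowest in control replicate 3, a male library with 2153 CPM of summed stem cell and sort gate markers, the highest of the 6, and 3119 CPM of neutrophil markers, the lowest. The part of these markers in the members' values was not tested.

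Other genes of these pathways were read from lists of related enzymes and hypoxia genes. Of 39 further genes of the hypoxia response, 32 were tested, 2 were higher and 2 lower, and their median log2 fold change was 0.01. Over all genes tested, 3.85% were called higher and 4.58% lower. Kdm4b, a histone demethylase that HIF1A can induce, measured 20.4, 23.6 and 19.3 CPM in the knockout label and 41.2, 41 and 42.4 CPM in controls, with a wide gap between the groups (log2 fold change −0.97, SE 0.10, adjusted p = 0.00263; −0.95 and 0.0497 with the sex term). Meis1, a stem cell transcription factor that drives Hif1a transcription, was 89.7 ± 6.26 CPM against 121 ± 16.7 CPM (−0.43, adjusted p = 0.0412), beside summed stem cell and sort gate markers of 1384 to 1538 CPM against 1757 to 2153 CPM. Hmox1, the haem oxygenase that macrophages use to recycle haem, measured 47.2, 86 and 137 CPM and 16.2, 22.5 and 32.4 CPM (1.92, adjusted p = 0.0207), and Mxi1, a repressor of the MYC network, 117, 95.2 and 93 CPM and 80.2, 79.1 and 68.2 CPM (0.42, adjusted p = 0.042). With the sex term no call held for these 3 genes: Meis1 was −0.22 (adjusted p = 0.502), whereas Hmox1 at 1.99 (0.268) and Mxi1 at 0.36 (0.416) had fold changes close to those without it. Leaving out 1 library gave adjusted p-values of 0.0574 to 0.105 for Mxi1, where each omission ended the call, and of 0.0207 to 0.126 for Meis1, where the call remained only without control replicate 2. The Hmox1 call ended without knockout replicate 2 (adjusted p = 0.071), control replicate 1 (0.0719) or control replicate 2 (0.0556), and the part of the macrophage markers given above in Hmox1 was not tested.

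Of 20 other glycolytic isoforms and accessory genes, 15 were tested, and Bpgm, which makes the red cell metabolite 2,3-bisphosphoglycerate, was higher (37.7, 36.8 and 40.7 CPM against 31, 26.3 and 31 CPM; log2 fold change 0.38, adjusted p = 0.043). Its call was lost with the sex term, where the value was 0.54 (adjusted p = 0.131), and when any 1 library was left out, with adjusted p-values of 0.0508 to 0.117. The summed erythroblast markers were 148 to 408 CPM against 82 to 202 CPM, and their part in the Bpgm values was not tested. Of 11 genes for pyruvate entry into mitochondria, 1 was higher: Pcx, the pyruvate carboxylase gene, at 17, 14.3 and 16.8 CPM against 8.24, 9.1 and 8.89 CPM, a separation with no overlap (0.87, SE 0.13, adjusted p = 0.00831; 0.81 and 0.165 with the sex term). In the pentose phosphate branch, which draws on glucose 6-phosphate to make NADPH, 1 of 7 genes passed, and the other 6 had values above 0, although Pgls was at 0.0018 and with the sex term Pgls (−0.019) and Rpe (−0.0069) were below 0. The called gene was G6pdx, X-linked and the entry enzyme of the branch, at 272, 223 and 229 CPM against 163, 185 and 130.1 CPM (0.60, adjusted p = 0.0304). With the sex term G6pdx was 0.38 (adjusted p = 0.405), and its call ended without any 1 library labelled knockout or without control replicate 1 (adjusted p = 0.0595 to 0.0912). Of 88 nuclear-encoded respiratory chain genes tested, 0 passed edgeR's adjusted threshold, 8 had an unadjusted p under 0.05, DESeq2 called 1 higher and 1 lower, and the median log2 fold change was −0.00. Beside the counts of these lists, edgeR called 8.42% of all genes tested in either direction, and 24.9% had an unadjusted p under 0.05.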

How the data were processed

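The values are raw read counts per gene symbol, deposited by the authors without normalization. The submitters' processing notes name STAR and mm10. The aligner's version, how reads were assigned to genes, from which annotation and whether by strand cannot be stated, being not given in the sources used here. Libraries were poly(A)-selected and made with a directional kit, per the labels' protocols. The exons of 8 of the genes (Hk1, Hk3, Pfkm, Pfkp, Aldoa, Tpi1, Gapdh and Pfkfb2) overlap another gene on the opposite strand, so their counts are uncertain. Pairs of libraries differed by a chi-square per degree of freedom of 10.2 to 48.6, so none repeated another.

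Counts of 13679 symbols that passed filterByExpr (minimum count 10, minimum total 15) were scaled by TMM and tested with edgeR 4.0.16 in R 4.3.3 (quasi-likelihood F test, group as the sole term, all 6 libraries). P-values were adjusted by Benjamini-Hochberg across all genes tested (threshold 0.05), and intervals cover the spread between libraries as modelled. Alternatives used DESeq2 1.42.0, limma 3.58.1 (voom), other scalings and filters, a sex term read from Xist and Y-linked genes, the female libraries alone, the replicate number as a block, and each library left out in turn. Isoform balance was tested by exact permutation. Positions and exon lengths came from GENCODE mouse release M21 (GRCm38, the assembly of mm10), the latter as the exon union of basic protein-coding transcripts, and promoter windows from RefSeq on GRCm38.p6. The scripts were tested on simulated data. There the edgeR test recovered 80.4% of 2-fold and 98% of 4-fold changes, and 18 of its 192 calls were false.

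The members and lists were chosen with earlier results of these data known. All 36 members are named, and from the related lists the genes past the threshold.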

Additional observations from a re-analysis of the deposited data

How the results depend on the processing

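Directions of Pfkl, Pdk1 and Car12 held under all 16 alternatives, and their adjusted p stayed under 0.05 in 13, 12 and 15 of them. The calls were lost mainly where sex was modelled or a library was left out. Genes called higher (526) were 833 with DESeq2, 1169 with the replicate block, 7 with the sex term and 10 in the female libraries alone. Genes called lower (626) were 1003 with the replicate block, 36 with the sex term and 29 in the female libraries. Of the 36 genes, the number higher (0) was 1 without a filter, 1 with DESeq2 and 3 with the replicate block (Hk3, Slc16a3 and Pfkfb4), and the number lower (3) was 6 with the block, 1 with the sex term and 1 in females. In the related lists, the number higher (5) was 9 with the block, 0 with the sex term and 0 in females, and the number lower (2) was 4 without a filter, 1 with the sex term and 0 in females. Leaving out 1 library gave 119 to 440 genes higher, 171 to 544 lower, 0 of the 36 higher, 0 to 4 of the 36 lower (0 without knockout replicate 2), and 1 to 3 higher and 1 to 4 lower in the related lists. Isoform pairs without overlap (6) were 12 in the female libraries, where a lone control falls clear of the other group more easily than 3 controls do. With 1 library left out they were 6 to 9. The lone or remaining samples were assumed to vary like the rest. Scaling by another method moved the median of all genes by less than 0.1.

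Replicate numbers were not shown to pair the libraries. Deviations of same-numbered libraries correlated at 0.357, 0.00307 and 0.381 (replicates 1, 2 and 3), the libraries numbered 2 did not correlate best with each other, and the block rests on a shared number alone.

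Changes of sign, none for a called gene, were as follows in log2 fold change. With the sex term: Hk1 0.041, Pfkm 0.061, Pfkp −0.050, Aldoc 0.33, Pgk1 0.010, Pgam1 −0.084, Hif1a −0.16, Egln1 −0.031, Bnip3 −0.063, Vegfa −0.080. In the female libraries: Hk1 0.039, Pfkm 0.058, Pfkp −0.051, Aldoc 0.33, Pgk1 0.0081, Pgam1 −0.086, Hif1a −0.16, Egln1 −0.032, Bnip3 −0.065, Vegfa −0.081. With library weights in limma-voom: Hk1 0.00095, Hif1a −0.027, Bnip3 −0.020, Arid2 −0.022. With upper-quartile scaling: Egln1 −0.0017, Bnip3 −0.021, Arid2 −0.022. Without a filter: Bnip3 −0.0011, Arid2 −0.0017. Bnip3 was −0.0049 with limma-voom and −0.0022 with the replicate block. With 1 library left out the ranges were Slc2a3 −0.017 to 0.22, Hk1 −0.074 to 0.042, Aldoa −0.12 to 0.056, Pgk1 −0.14 to 0.085, Pgam1 −0.0083 to 0.27, Eno2 −0.090 to 0.63, Slc16a1 −0.22 to 0.016, Hif1a −0.057 to 0.19, Egln1 −0.060 to 0.11, Bnip3 −0.10 to 0.069, Arid2 −0.032 to 0.044. Among isoform balances, Hk1/Hk2 was 0.00594 and Aldoa/Aldoc −0.46 in the female libraries, Eno1/Eno2 0.074 with a pseudocount of 0.5 CPM, and with 1 library left out Aldoa/Aldoc ran from −0.011 to 0.51 and Eno1/Eno2 from −0.38 to 0.36. The cause of these changes was not tested. With 3 libraries a group, fold changes of Eno2, Aldoc and Car12 are the least precise, and Pdk4 is below the depth needed for a test.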
